A study of Mus musculus with 18 samples.

Results

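The mouse carries 39 protein-coding *Hox* genes in 4 clusters, and their mRNA was followed through forebrain, midbrain and hindbrain of young *Fmr1*CRE and wild-type mice. The members were taken by name, as every protein-coding gene whose symbol in GENCODE M21 is Hox followed by a cluster letter and a number, and all 39 were among the 53468 genes counted. In GRCm38, the 11 HoxA members lie on chromosome 6 between 52155590 and 52260880, on the minus strand. The 10 HoxB members lie on chromosome 11 between 96194316 and 96368256, the 9 HoxC members on chromosome 15 between 102921103 and 103036852, and the 9 HoxD members on chromosome 2 between 74668310 and 74765142, all on the plus strand.

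*Hox* genes encode homeodomain transcription factors that give cells along the head-to-tail axis of the embryo their position. Genes at the same place in different clusters form a paralog group, numbered from the 3′ end of the cluster, and low-numbered groups are active further towards the head than high-numbered ones. In the hindbrain they set the identity of the rhombomeres and of the neurons that arise there, the groups with higher numbers act in the spinal cord, and the embryonic forebrain and midbrain form without them. Many neurons of the brainstem and spinal cord keep *Hox* expression after birth.

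Poly(A) RNA was sequenced from dissected forebrain, midbrain and hindbrain of 3 *Fmr1*CRE and 3 wild-type mice of a single litter at P25, which gave 18 libraries and 6 groups of 3. *Fmr1*CRE mice are CRISPR/Cas9 knock-ins of a variant in a *cis*-regulatory element assigned to *Fmr1*, bred to C57BL/6, and the wild-type mice carry no edited allele. Each mouse gave 1 library per region, so libraries of different regions share their mice. The libraries held between 22455512 and 28061185 counts.

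The labels of the regions were set beside marker genes. The summed level of 10 forebrain markers ran from 513 to 855 counts per 1000000 (CPM) in forebrain, from 236 to 428 CPM in midbrain and from 59.9 to 97.0 CPM in hindbrain. The 12 markers of pons and medulla neurons summed to 3.05 to 5.11 CPM in forebrain, 35.8 to 125 CPM in midbrain and 159.5 to 299 CPM in hindbrain. The 12 cerebellum markers summed to 260 to 321, 628 to 1398 and 1511 to 3145 CPM in the same order. Of 12 genes that differed by over 2 on the log2 scale between both mice numbered 3 in midbrain and in hindbrain alike, 10 differed in the opposite direction in forebrain. For the mice numbered 1 this held for 4 of 13 genes and for those numbered 2 for 6 of 12. With midbrain set against the other regions in the same way, it held for 7 of 9 genes in the mice numbered 3, and with hindbrain for 1 of 2. The regions of the mice numbered 3 thus did not agree on the direction of the difference between the genotypes, and whether a library among them carries the wrong label was not tested. *Fmr1* itself stood at 69.2 to 83.4 CPM in forebrain, 61.6 to 74.1 CPM in midbrain and 51.1 to 69.8 CPM in hindbrain, with no difference called between the genotypes (edgeR). The comparisons below were therefore also made without both mice of replicate 3. In bulk tissue, a lower level can come from fewer cells that express a gene or from less RNA per cell, which cannot be told apart here.

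The *Hox* clusters were read almost entirely in hindbrain. All members together held between 3916 and 7496 counts in each hindbrain library, between 24 and 168 in each midbrain library and between 6 and 18 in each forebrain library. On the CPM scale, the sum over members was 145.3 to 247.5 in hindbrain, 0.822 to 7.32 in midbrain and 0.242 to 0.711 in forebrain. The regions did not overlap. HoxB gave 52.3% of the hindbrain sum, at 105.1 CPM ± 20.7 (SD, n = 6), HoxA 25.8%, at 51.9 CPM ± 7.32, HoxC 12.1%, at 24.3 CPM ± 3.67, and HoxD 9.87%, at 19.9 CPM ± 3.47.

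Within the clusters, hindbrain levels rose from paralog group 1 to group 5 and were lowest in groups 9 to 13. As the mean over the members of a group of CPM per kilobase of transcript, the hindbrain level was 0.455 for group 1, 3.22 for group 2, 3.79 for group 3, 4.08 for group 4 and 10.3 for group 5. It was 4.04 for group 6, 3.77 for group 7 and 4.73 for group 8, and then 0.184 for group 9. The 12 members of groups 10 to 13 were at or near 0, with a highest single hindbrain value of 9 counts. The members with the highest hindbrain level per kilobase were *Hoxa5* at 15.3, *Hoxb5* at 12.5, *Hoxb8* at 12 and *Hoxb6* at 9.40 CPM per kb.

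**Figure D1:**
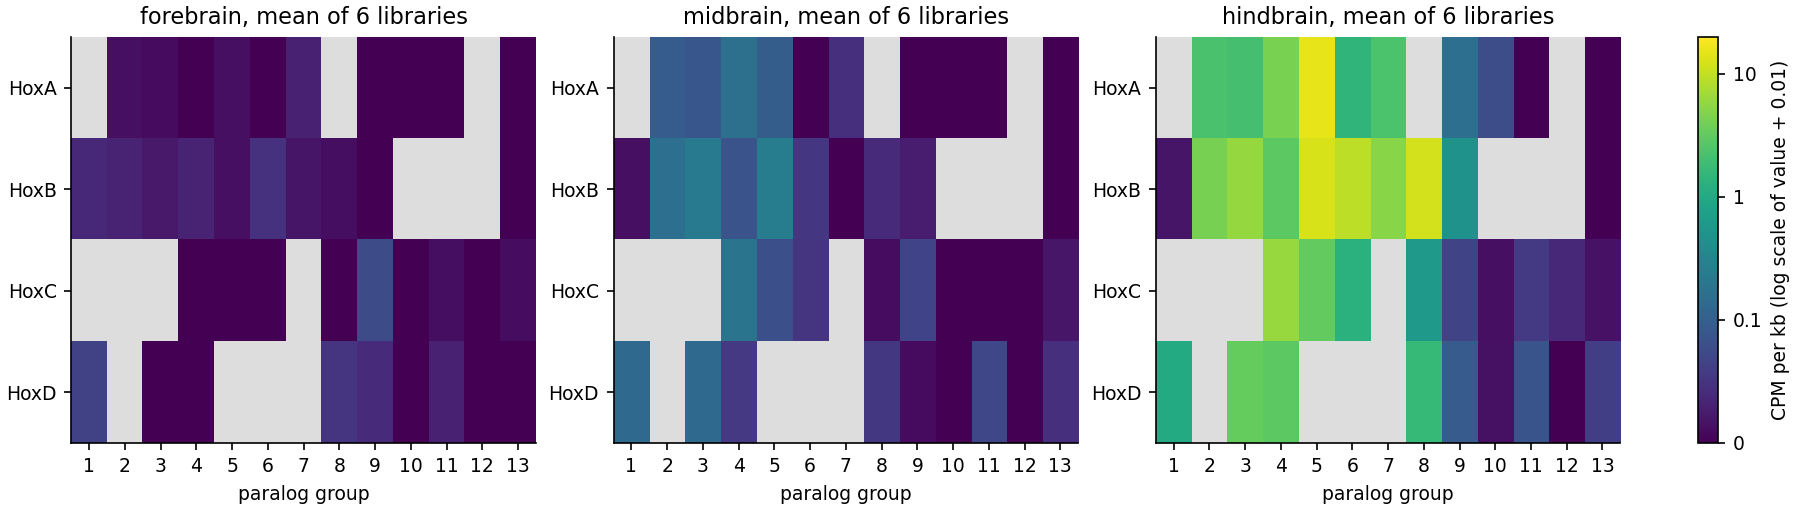
Mean level of each member in CPM per kb of transcript (colour, log scale of the value + 0.01), with the 4 clusters as rows and the 13 paralog groups as columns, for the 6 libraries of each region; grey cells hold no gene or a gene not shown. Hindbrain is high from group 2 to group 8, midbrain holds a faint signal in groups 1 to 5, and forebrain is close to 0.

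Group 1 was low in hindbrain. *Hoxb1*, a gene of rhombomere identity in the embryo, had 0 or 1 count in every hindbrain library. *Hoxd1*, known in sensory neurons, had a lowest, median and highest hindbrain level of 1.45, 1.76 and 2.61 CPM.

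Groups 2 and 3, which pattern the rhombomeres and the neural crest of the pharyngeal arches, were read in every hindbrain library. *Hoxa2* had a lowest, median and highest level of 3.46, 3.90 and 4.51 CPM, and *Hoxb2* of 6.68, 7.22 and 8.78 CPM. *Hoxb3* was the highest of its group at 15.7, 16.9 and 21.6 CPM. *Hoxd3* had 5.22, 9.05 and 9.94 CPM, with *Fmr1*CRE replicate 1 the lowest, and much of its sequence is shared with overlapping genes. *Hoxa3* had 3.598, 4.28 and 8.59 CPM and the widest spread of groups 2 to 5, with a coefficient of variation of 41.2% over the 6 libraries. Across the 12 members of groups 2 to 5 this coefficient ran from 8.21% to 41.2%, with a median of 15.7%.

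Group 4 marks the caudal hindbrain in the embryo. *Hoxc4* was steady at 11.2, 12.1 and 14.1 CPM, the lowest coefficient of variation of these members. *Hoxb4*, also known for expanding blood stem cells, had 5.43, 7.84 and 8.95 CPM, *Hoxa4* had 5.81, 6.50 and 9.04 CPM, and *Hoxd4* had 4.04, 4.81 and 6.27 CPM. Group 5 acts with group 4 in respiratory motor neurons. *Hoxa5* had 24.9, 27.6 and 36.4 CPM, *Hoxb5* had 19.9, 23.3 and 31.9 CPM, and *Hoxc5* had 6.27, 8.999 and 9.92 CPM. In these groups, *Hoxd4* was the member whose genotypes did not overlap, as given with the comparison of genotypes.

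Groups 6 to 9, which mark the spinal cord and its junction with the hindbrain, were detected at P25 but spread far more widely. *Hoxb8*, whose loss gives excessive grooming in mice, had 31.5, 32.1 and 30.9 CPM in the *Fmr1*CRE hindbrains and 7.12, 37.4 and 24.2 CPM in wild-type replicates 1, 2 and 3. *Hoxb6* had a lowest, median and highest level of 8.79, 12.8 and 19.4 CPM, *Hoxb7* of 2.82, 7.12 and 8.78 CPM, and *Hoxa7* of 0.631, 4.69 and 7.23 CPM. In each of these the lowest value was that of wild-type replicate 1. *Hoxd8* had 0.408, 4.42 and 5.85 CPM, *Hoxc6*, a gene of limb-level motor neurons, had 0.334, 2.31 and 2.74 CPM, and *Hoxa6* had 0.482, 1.37 and 1.58 CPM. The same library was lowest again. *Hoxb9* had 18, 61 and 18 counts in the *Fmr1*CRE hindbrains and 1, 61 and 29 in wild-type replicates 1, 2 and 3, and *Hoxc8*, which directs forelimb motor pools, had 18, 109 and 8 against 0, 51 and 20. The coefficient of variation of the 10 members of groups 6 to 9 that passed the filter on low counts ran from 28.03% to 117%, with a median of 47.1%. It includes wild-type replicate 1, and its value without that library is not given here.

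Wild-type replicate 1 was the lowest of the 6 hindbrain libraries for 10 of these 10 members. For the 14 members of groups 1 to 5 that passed the filter it was the lowest for 6. The share of all tested genes for which this library was lowest is not given here, so these counts have no background beside them. Its level over the median of the other 5 hindbrain libraries was 0 to 0.647, with a median of 0.156, in groups 6 to 9, and 0.669 to 1.58, with a median of 0.923, in groups 1 to 5. The summed level of groups 6 to 9 was 20.9 CPM in this library and 63.5 to 86.9 CPM in the other 5, while that of groups 1 to 5 was 124 CPM in it and 131 to 160.1 CPM in the others. The ratio of these sums was 0.169 in it and 0.435 to 0.542 elsewhere. The library therefore stood apart in the high-numbered groups and lay just under the range of the others in the low-numbered ones.

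Other genes moved with it. In this library the 8 motor neuron markers summed to 86.7 CPM (102.7 to 157 in the other 5 hindbrain libraries), and the 12 pons and medulla markers to 159.5 CPM (191 to 299). The 8 choroid plexus markers summed to 3257 CPM (912 to 2628), the 10 forebrain markers to 97.0 CPM (59.9 to 81.7), the 8 meningeal markers to 207 CPM (133 to 161), the 5 blood markers to 2709 CPM (1058 to 2399), the 5 oligodendrocyte markers to 28440 CPM (31470 to 40010) and the 4 endothelial markers to 86.8 CPM (60.2 to 80.3). The cerebellum markers, at 2632 CPM, lay inside the range of the others. None of these markers was at 0 in all hindbrain libraries. Their part in the low *Hox* values of this library was not tested.

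**Figure D2:**
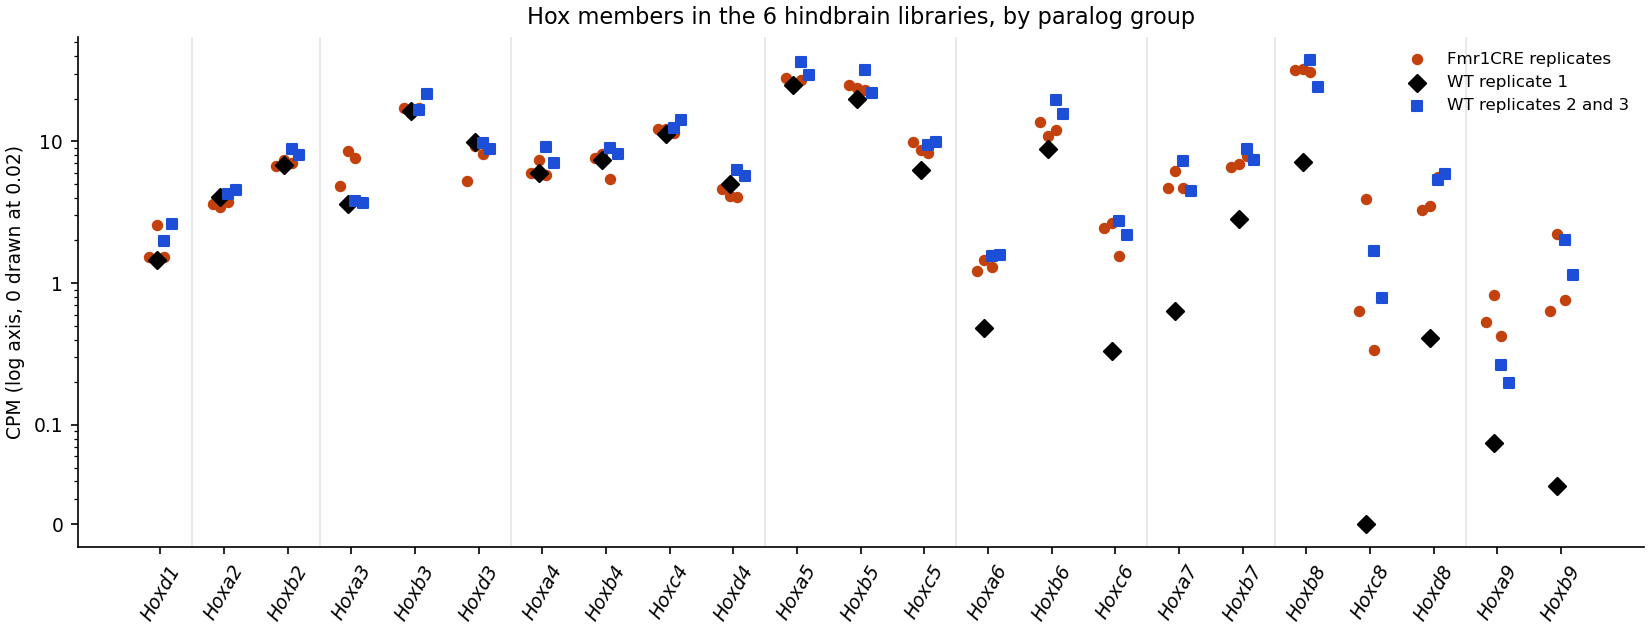
CPM (log axis, with 0 drawn at 0.02) of 23 of the 24 members that passed the filter in each of the 6 hindbrain libraries, ordered by paralog group: *Fmr1*CRE replicates as circles, wild-type replicates 2 and 3 as squares and wild-type replicate 1 as a black diamond. Up to group 5 the diamond lies among the others or close to them, and from group 6 to group 9 it is under all of them.

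The promoters of 22 members were in the RefSeq table used here (GRCm38.p6), as 24 windows from 250 bases before to 50 bases after the start site. Their median GC content was 57.6%, against 52.7% over all 32817 windows, and their median ratio of observed to expected CpG was 0.63 against 0.38. HOX proteins bind DNA beside PBX partners, and the 8-letter sequence TGATNNAT was searched on both strands as the joint PBX and HOX motif. It was in 4 of the 24 member windows, or 16.7%, and in 8.86% of all windows. Of these, 3 are shown because they span the range of hindbrain levels, from *Hoxb8* at 27.2 CPM through *Hoxa2* at 3.93 CPM to *Hoxb1* at 0.0117 CPM. The 250 bases before the start site are given 5′ to 3′ on the strand of the gene with the match in capitals, for *Hoxb8* (chr11:96281655-96281904, plus strand), *Hoxa2* (chr6:52164832-52165081, minus strand) and *Hoxb1* (chr11:96365508-96365757, plus strand).
Hoxb8: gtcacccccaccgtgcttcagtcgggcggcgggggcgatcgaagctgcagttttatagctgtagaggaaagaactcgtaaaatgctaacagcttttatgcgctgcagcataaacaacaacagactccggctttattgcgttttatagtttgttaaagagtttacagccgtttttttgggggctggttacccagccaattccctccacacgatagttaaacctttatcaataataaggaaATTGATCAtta
Hoxa2: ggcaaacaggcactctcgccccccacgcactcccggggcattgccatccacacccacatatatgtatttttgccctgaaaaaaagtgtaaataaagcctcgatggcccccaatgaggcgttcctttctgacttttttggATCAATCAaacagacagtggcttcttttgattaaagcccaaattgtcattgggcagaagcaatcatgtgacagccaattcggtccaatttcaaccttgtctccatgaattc
Hoxb1: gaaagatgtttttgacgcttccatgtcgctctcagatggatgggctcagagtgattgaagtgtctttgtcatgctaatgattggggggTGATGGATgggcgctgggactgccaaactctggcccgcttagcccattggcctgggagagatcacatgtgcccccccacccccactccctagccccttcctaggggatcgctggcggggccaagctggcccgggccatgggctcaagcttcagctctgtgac
The match began 11 bases before the start site in *Hoxb8*, 111 before it in *Hoxa2* and 162 before it in *Hoxb1*. The remaining match lay in a window of *Hoxd11*. The letters were thus present upstream of a member with one of the highest hindbrain levels and of a member at or near 0.

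The comparison of the regions asked which members were read outside the hindbrain. The genotypes were averaged and counts of all genes compared by the quasi-likelihood test of edgeR on TMM-normalized libraries, with Benjamini-Hochberg adjustment over the 20363 genes that passed the filter. Of the 39 members 24 passed it, and they did so through their hindbrain counts: in midbrain libraries alone 3 members passed, and in forebrain libraries alone 0. Hindbrain was higher than midbrain for 24 of these 24 at an adjusted p under 0.05 (24% of all tested genes were called higher and 49.1% in either direction), and higher than forebrain for 24 of 24 (25.3% of all, and 51.7% in either direction). Because the filter let members in where hindbrain was high, these counts are fixed by it in large part. Their median log2 fold change was 5.96 against midbrain (0.03 over all genes) and 8.76 against forebrain (0.01 over all genes). Without a filter, 26 members were called higher than in midbrain (11.1% of 38195 genes) and 28 higher than in forebrain (13.1%). For 22 of the 39 members every hindbrain library was above every forebrain and midbrain library (7.45% of all tested genes). For 2 members every midbrain library was above every forebrain library (5.35% of all tested genes).

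The other 15 members were *Hoxb1*, *Hoxc9*, *Hoxd9* and the 12 members of groups 10 to 13. *Hoxa11*, *Hoxa13*, *Hoxb13* and *Hoxd12* had 0 counts in all 18 libraries. A sum of 0 counts over the 6 libraries of a region is taken here to allow up to 3, for counting error alone. *Hoxd9* had 4 to 9 counts in 5 hindbrain libraries and 1 in wild-type replicate 1. *Hoxc9*, which sets the thoracic motor columns in the spinal cord, was read at the same few counts everywhere, with a sum of 15 in hindbrain, 13 in midbrain and 16 in forebrain. *Hoxd11* had 34 counts in hindbrain, 20 in midbrain and 5 in forebrain.

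The size of the difference between hindbrain and midbrain differed by paralog group. Group 1 differed least, with a log2 fold change of 3.06 (SE 0.44, adjusted p = 3.9e-05, edgeR) for *Hoxd1*. Groups 2 and 3 lay close together, from 4.76 (SE 0.41) for *Hoxb3* to 4.95 (SE 0.45) for *Hoxa3*. In group 4 the values were 4.81 (SE 0.47) for *Hoxa4*, 5.22 (SE 0.28) for *Hoxc4*, 5.59 (SE 0.36) for *Hoxb4* and 6.62 (SE 0.46) for *Hoxd4*. In group 5 they were 5.83 (SE 0.40) for *Hoxb5*, 6.09 (SE 0.39) for *Hoxc5* and 7.52 (SE 0.36, adjusted p = 1.7e-09, edgeR) for *Hoxa5*. *Hoxb6* and *Hoxb8* differed most among members with over 3 midbrain counts, at 8.70 (SE 0.43, adjusted p = 4.1e-10) and 9.50 (SE 0.56, adjusted p = 1.3e-08, edgeR). Each rested on 5 midbrain counts, beside 4 forebrain counts for *Hoxb6* and 1 for *Hoxb8*. *Hoxb7* had 1089 counts in hindbrain and 0 in midbrain and was at least 341-fold higher in hindbrain, at 3 midbrain counts over the region.

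Put as a share of the hindbrain level, the midbrain held 12.1% (95% exact Poisson interval 8.97 to 16.02, counting error only) of group 1. It held 3.45% (2.63 to 4.44) of group 2, 3.53% (3.02 to 4.11) of group 3, 2.43% (2.01 to 2.91) of group 4 and 1.18% (0.967 to 1.42) of group 5. The share was 0.391% (0.188 to 0.720) for group 6, 0.287% (0.0933 to 0.670) for group 7 and 0.301% (0.169 to 0.497) for group 8. Without wild-type replicate 1 in midbrain, which held 3 of the 5 midbrain counts of group 7, the share of that group was 0.135%, and without *Fmr1*CRE replicate 2, which held 9 of the 15 counts of group 8, the share of that one was 0.146%. The shares did not fall at every step, as group 3 lay just above group 2 and group 8 just above group 7. Groups 9 and 11 were higher again. Group 9 was at 6.15% (3.58 to 9.85), with 13 of its 17 midbrain counts from *Hoxc9*, and group 11 at 49.5% (30.2 to 76.4), with 20 midbrain and 43 hindbrain counts. Groups 10 to 13 together were at 40.1% (26.8 to 57.5). For groups 1 to 5 together the midbrain share was 2.39%, and for groups 6 to 9 it was 0.492%. The forebrain share of the hindbrain level was 0.153% for groups 1 to 5 and 0.415% for groups 6 to 9. By group, forebrain stood at 0.163% (0.0445 to 0.418) for group 6, 0.240% (0.0653 to 0.614) for group 7 and 0.189% (0.0862 to 0.358) for group 8. These intervals overlapped those of midbrain, so the midbrain shares of groups 6 to 8 were not set apart from forebrain. Within group 8 the midbrain share was 0.120% for *Hoxb8* and 1.49% for *Hoxd8*. The latter rested on 9 midbrain counts, 6 of them in *Fmr1*CRE replicate 2, and was 0.601% without that library.

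**Figure D3:**
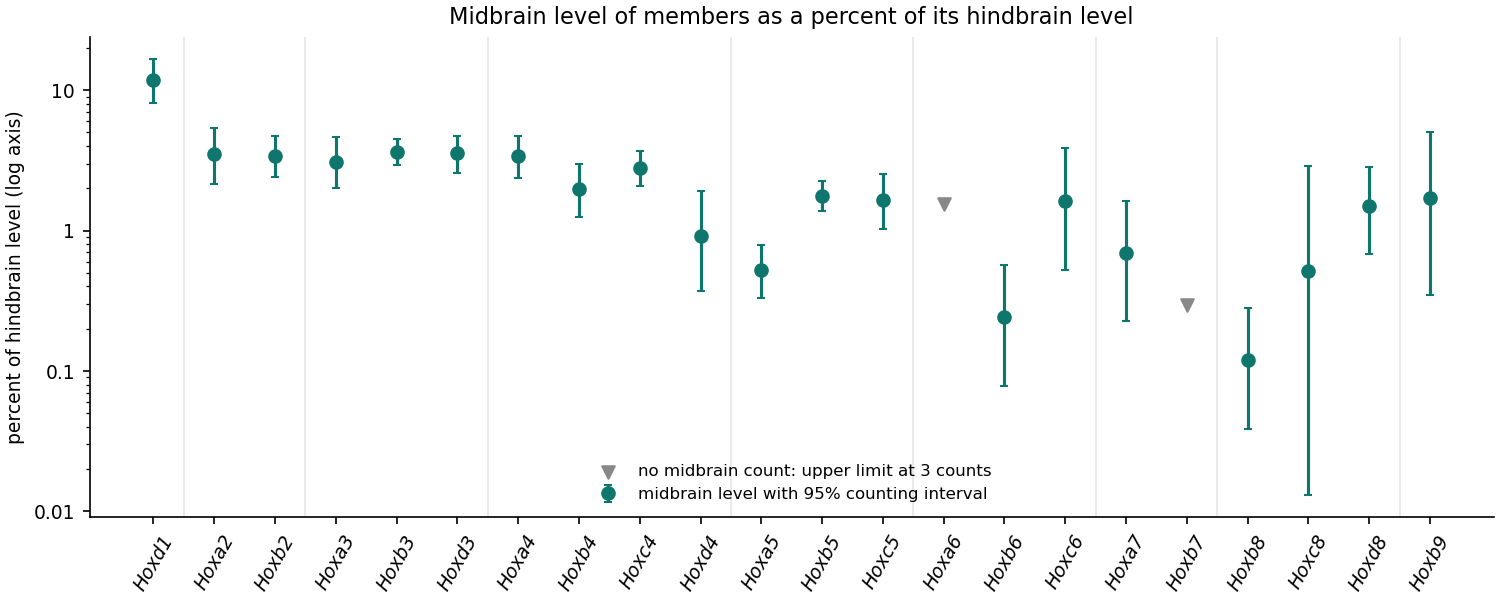
Midbrain level of members with at least 100 hindbrain counts as a percent of its hindbrain level (log axis), from counts summed over the 6 libraries of each region, with 95% exact counting intervals; grey triangles are upper limits at 3 counts for *Hoxa6* and *Hoxb7*, which had no midbrain count. The values range from 11.8% for *Hoxd1* to 0.120% for *Hoxb8*, without a steady order within groups 6 to 9 and with wide intervals for *Hoxc6*, *Hoxc8*, *Hoxd8* and *Hoxb9*.

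Midbrain was also compared with forebrain, and here the filter had no part, as the members had passed through hindbrain. Midbrain was higher for 12 of the 24 tested members, while 9.96% of all genes were called higher, and 0 members were lower, against 9.38% of all genes. The 12 were *Hoxd1*, *Hoxa2*, *Hoxb2*, *Hoxa3*, *Hoxb3*, *Hoxd3*, *Hoxa4*, *Hoxb4*, *Hoxc4*, *Hoxa5*, *Hoxb5* and *Hoxc5*, so that 12 of 14 tested members of groups 1 to 5 were called and 0 of 10 of groups 6 to 9. The difference between these classes was not tested.

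The values behind these calls were small. *Hoxb3* had 16, 15 and 8 counts in the *Fmr1*CRE midbrains and 36, 21 and 1 in the wild-type ones, against 0 or 1 in each forebrain library (log2 fold change 4.72, SE 0.80, adjusted p = 0.00067, edgeR). *Hoxc4* had 16, 8 and 11 against 10, 5 and 2 in midbrain and 0 in all 6 forebrain libraries, at least 16.6-fold higher (adjusted p = 0.00017, edgeR). *Hoxb5* had 18, 11 and 14 against 18, 5 and 0 (adjusted p = 0.0020, edgeR), with 1 forebrain count in all, a ratio of 63.3 with a counting interval of 10.97 to 2536. Its call was lost with wild-type libraries alone (adjusted p = 0.131, edgeR). All 3 were clearly read in midbrain libraries of both genotypes, with wild-type replicate 3 lowest in each. *Hoxd3* had 4, 9 and 4 against 21, 7 and 1, *Hoxa4* had 7, 7 and 3 against 14, 5 and 0, and *Hoxb2* had 8, 2 and 3 against 14, 11 and 1. *Hoxd1* had 13, 3 and 4 against 6, 4 and 5 in midbrain, and 0, 1 and 5 against 2, 1 and 0 in forebrain (log2 fold change 1.88, SE 0.63, adjusted p = 0.047, edgeR). The call of *Hoxd1* was lost when any 1 of 5 mice was left out and with the mouse as a replicate block (adjusted p = 0.102, edgeR). *Hoxc5* had 10, 2 and 5 against 2, 3 and 0, and *Hoxa5* had 5, 3 and 2 against 10, 3 and 0.

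Midbrain libraries differed widely. The summed level of groups 1 to 5 was 4.44, 2.69 and 2.93 CPM in the *Fmr1*CRE midbrains and 6.62, 3.47 and 0.548 CPM in wild-type replicates 1, 2 and 3, against 0.117 to 0.341 CPM in forebrain. Groups 6 to 9 summed to 0.137 to 0.479 CPM in midbrain and 0 to 0.484 CPM in forebrain, and these ranges overlapped. Wild-type replicate 3 was the lowest midbrain library for 10 of the 14 tested members of groups 1 to 5, ties counted to the earlier library. The share of all genes for which it was lowest is not given here. Beside these sums, the pons and medulla markers stood at 68.7, 35.8 and 83.7 CPM in the *Fmr1*CRE midbrains and at 124, 125 and 83.0 CPM in the wild-type ones, and the cerebellum markers at 628, 1308 and 743 against 868, 1211 and 1398 CPM. The part of hindbrain cells in the midbrain *Hox* counts was not tested. With wild-type libraries alone 4 members were called, with *Fmr1*CRE libraries alone 7, and without wild-type replicate 1 or without wild-type replicate 2 the number was 7 in each case. Without both mice of replicate 3 it was 12. Fewer libraries were fitted in each of these, and the share of all genes called in them is not given here.

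**Figure D4:**
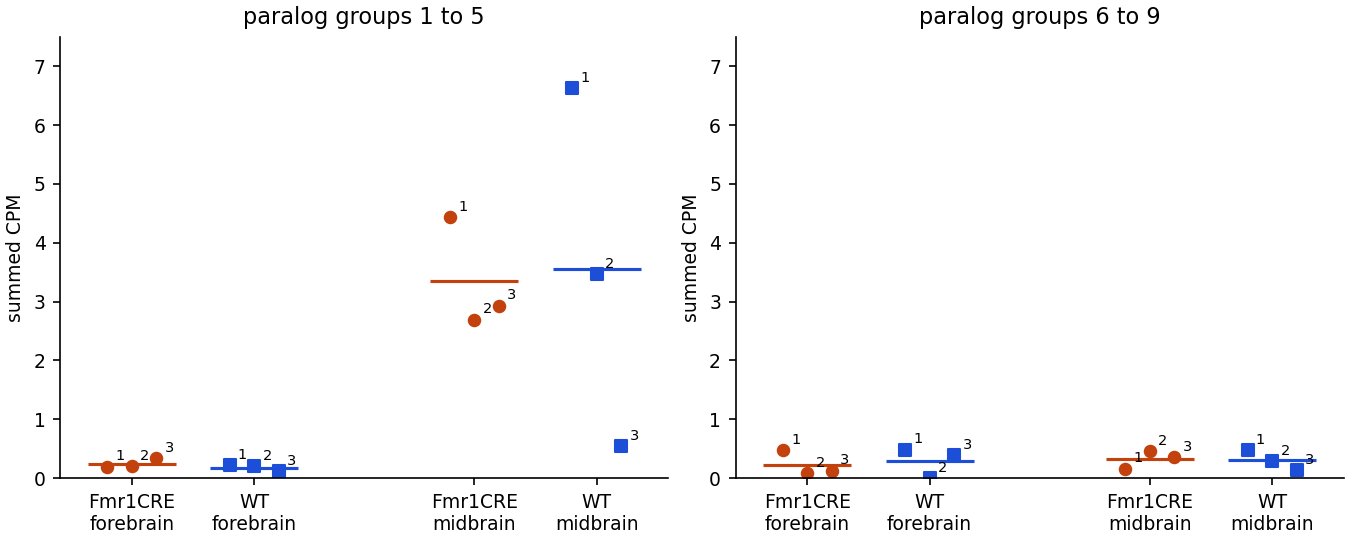
Summed CPM of paralog groups 1 to 5 (left) and 6 to 9 (right) in each forebrain and midbrain library, with the replicate number beside each point and the mean of 3 libraries as a line. Groups 1 to 5 reach 2.69 to 6.62 CPM in 5 midbrain libraries and 0.548 in wild-type replicate 3, and groups 6 to 9 stay under 0.5 CPM in both regions.

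The genotypes were then compared within each region. In hindbrain 24 members were tested and 0 differed at an adjusted p under 0.05 (edgeR), as did 0 of 19112 genes (0.0%). At an unadjusted p under 0.05 there were 2 members and 981 genes, or 5.13%, and DESeq2 called 0 members. The smallest adjusted p of a member was 0.875. In midbrain 3 members passed the filter and 0 were called (0.00543% of 18400 genes). There the log2 fold change of *Fmr1*CRE over wild-type was -0.62 (SE 0.86) for *Hoxb3*, 0.86 (SE 0.89) for *Hoxb5* and 1.02 (SE 0.60) for *Hoxc4*, with 0 at an unadjusted p under 0.05. In forebrain no member had enough counts to be tested, and 0 of 18467 genes were called (0.0%). The genotype difference was not detected to vary with region for any of 24 members (0 of 20363 genes called, 0.0%), with 0 members and 1535 genes at an unadjusted p under 0.05 and 0 members called by DESeq2.

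Hindbrain values did not overlap between the genotypes for 4 of the 24 tested members, and for 10.9% of all tested genes. *Hoxa3*, a gene of pharyngeal arch development, had 4.80, 8.59 and 7.58 CPM in *Fmr1*CRE hindbrains and 3.598, 3.76 and 3.68 CPM in wild-type ones (log2 fold change 0.91, SE 0.24, adjusted p = 0.875, edgeR). Of its transcript sequence, 23.6% is also found in other genes on the opposite strand, and the sources used here do not state whether counting used strand. *Hoxa9*, low throughout, had 15, 23 and 10 counts against 2, 8 and 5 (log2 fold change 1.69, SE 0.52, adjusted p = 0.875, edgeR), and these were the 2 members under the unadjusted threshold. *Hoxa2* had 3.59, 3.46 and 3.75 CPM against 4.04, 4.22 and 4.51 CPM, and *Hoxd4* had 4.62, 4.08 and 4.04 against 5.01, 6.27 and 5.69 CPM, with log2 fold changes of -0.25 (SE 0.18) and -0.42 (SE 0.18) and adjusted p of 0.889 and 0.875. With 3 libraries against 3, a two-sided exact permutation test cannot give a p below 0.1, and it gave 0.1 for each of the 4.

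The genotype difference was bounded less closely in groups 6 to 9, where wild-type replicate 1 was the lowest library for all 10 tested members. The SE of the genotype difference was derived from the F statistic of edgeR. It was 0.14 to 0.37, with a median of 0.19, over the 14 tested members of groups 1 to 5. Over the 10 of groups 6 to 9 it was 0.27 to 1.16, with a median of 0.57. The SE without wild-type replicate 1 is not given here, so its part in this spread is left unmeasured. Within *Fmr1*CRE hindbrains alone, *Hoxb8* had a mean of 31.5 CPM with an SD of 0.58, and *Hoxc8* a mean of 1.64 CPM with an SD of 1.99. For *Hoxb8* the log2 fold change was 0.45 (SE 0.47) and without wild-type replicate 1 it was 0.03. Over groups 6 to 9 the median was 0.24 with 9 of 10 members above 0, and without that mouse it was -0.18 with 3 of 10 above 0. Over groups 1 to 5 it was -0.17 with 2 of 14 above 0, and -0.27 with 1 of 14 without that mouse. Over all tested genes the median was -0.01. Wild-type replicate 1 was picked for being lowest in all 10 members of groups 6 to 9. Leaving it out was thus bound to lower their fold changes, and the shift is no test of that mouse. The members share their libraries and are not independent, and the share of all genes above 0 is not given here. With or without that mouse, 0 members were called.

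**Figure D5:**
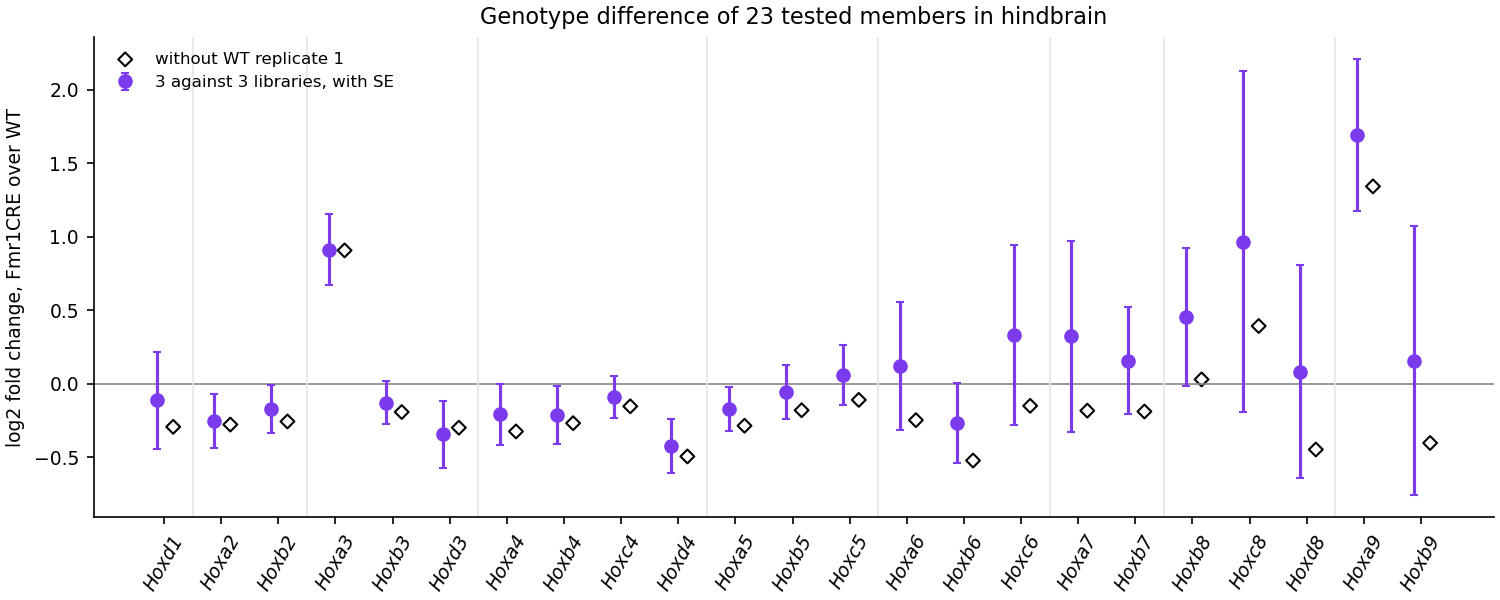
Log2 fold change of *Fmr1*CRE over wild-type in hindbrain for 23 of the 24 tested members, ordered by paralog group, with its standard error (filled circles, 3 against 3 libraries) and without wild-type replicate 1 (open diamonds). In groups 6 to 9 the open diamonds lie below the circles for every member, which leaving out the lowest library was bound to give. *Hoxa3* (0.91) and *Hoxa9* (1.69 and 1.34) are the highest without that mouse, while *Hoxc8* (0.97) is above *Hoxa3* with it.

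Between the outermost members of the clusters lie 46 other annotated genes, of which 19 had 0 counts throughout and 10 reached a mean of 0.5 CPM in hindbrain. The 11 that passed the filter were all called higher in hindbrain than in midbrain (24% of all tested genes) and than in forebrain (25.3%). These counts have the same limit of the filter as those of the members. *Hotairm1*, a non-coding RNA at the 3′ end of HoxA, had a hindbrain level of 4.80 CPM ± 0.978 (SD, n = 6) and differed from midbrain by 3.67 on the log2 scale (SE 0.31). *Hoxb3os*, antisense to *Hoxb3*, stood at 4.55 CPM ± 1.16 and differed by 4.24 (SE 0.28). *Hoxaas2* had 3.03 CPM ± 0.729 and *Haglr*, which starts beside *Hoxd1*, 3.19 CPM ± 1.02. *Haglr* also had 21 counts over the 6 forebrain libraries and *Hotairm1* 6, while *Hoxb3os* and *Hoxaas2* had 0. Of the *Hoxb3* sequence, 52.6% is also in other genes on the opposite strand, so counts of *Hoxb3* and *Hoxb3os* cannot be told apart with certainty.

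Some of these transcripts followed the single wild-type mouse and others did not. *Gm28230*, a gene that overlaps *Hoxd3* and *Hoxd4*, had 113, 130 and 53 counts in *Fmr1*CRE hindbrains and 21, 91 and 105 in wild-type ones, and *Hoxd3os1* had 27, 20 and 21 against 4, 21 and 16. Both were lowest in wild-type replicate 1. Of the sequence of *Hoxd3* 61.1%, and of that of *Hoxd4* 49.1%, is also in other genes on the same strand, *Gm28230* foremost, so that their counts may be split between them. *Hoxb5os*, which is transcribed against the direction of HoxB and overlaps *Hoxb5* and *Hoxb6*, had 6, 2 and 4 counts in *Fmr1*CRE hindbrains and 96, 6 and 49 in wild-type replicates 1, 2 and 3. In these gene counts it was high in the library where groups 6 to 9 were low, and its groups met at 6 counts. The authors' estimated counts per transcript, summed over all their tables, gave *Hoxb5os* only 48. That is fewer than the 96 gene counts of wild-type replicate 1 alone, so the sources disagree and its level is uncertain. *Hoxb5os* did not pass the filter and was not tested. *Gm27477*, *Gm15050* and *5730596B20Rik*, inside HoxA, had 0.727, 0.679 and 0.614 CPM. The 7 microRNA genes of the clusters gave 4 counts in all, in libraries that were selected for poly(A) RNA.

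Coding genes outside the clusters differed less between the regions. Of the 3 nearest coding genes on each side of each cluster, 24 in all, 23 were tested, 10 were higher in hindbrain than in midbrain and 4 lower, where 24% of all tested genes were higher and 25.1% lower. Their median log2 fold change was 0.19, against 0.03 over all genes. *Evx1*, an even-skipped homeobox gene 52.6 kb from HoxA, had a hindbrain mean of 1.45 CPM and differed by 1.06 (SE 0.22). *Evx2*, 8.8 kb from HoxD, had 1.33 CPM in hindbrain, 1.25 CPM in midbrain and 0 in forebrain (log2 fold change against midbrain 0.19, SE 0.25, adjusted p = 0.545, edgeR). *Skap2* differed by 1.25 (SE 0.17), *Skap1* by 1.49 (SE 0.24) and *Mtx2*, 60.7 kb beyond *Hoxd1*, by 0.59 (SE 0.08). The furthest below 0 were *Calcoco1* at -0.59 (SE 0.13) and *Snx10* at -0.52 (SE 0.10). No neighbour reached the smallest difference of a tested member, 3.06.

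Of 11 genes of the TALE homeodomain family, the DNA-binding partners of HOX proteins, 3 were higher and 3 lower in hindbrain than in midbrain, close to the shares over all genes (24% and 25.1%), with a median log2 fold change of -0.15. *Meis1* had a lowest, median and highest level of 20.7, 24.8 and 29.0 CPM in hindbrain, 6.96, 11.2 and 13.9 CPM in midbrain and 3.28, 4.99 and 7.74 CPM in forebrain (log2 fold change against midbrain 1.21, SE 0.19). *Pknox2* ran the other way, at 9.92, 14.8 and 16.5 CPM in hindbrain against 29.7, 39.2 and 44.8 CPM in midbrain (log2 fold change -1.43, SE 0.14). The hindbrain and midbrain libraries did not overlap for *Meis1* or *Pknox2*.

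Of 20 upstream regulators, which include the retinoic acid pathway and the rhombomere factors, 14 were tested, with 2 higher and 5 lower in hindbrain than in midbrain, beside the same 24% and 25.1% of all genes. *Aldh1a1*, an enzyme that makes retinoic acid, had 298 to 391 CPM in hindbrain and 126 to 166 CPM in midbrain (log2 fold change 1.23, SE 0.09). *Egr2*, which drives *Hox* genes in the embryonic rhombomeres, had 0 to 8 counts in hindbrain libraries and 4 to 367 in midbrain libraries. Of 23 Polycomb and Trithorax genes, which hold *Hox* clusters silent or active, 3 were higher and 11 lower in hindbrain than in midbrain, where 24% and 25.1% of all genes were. They ran from -0.99 (SE 0.14) for *Kmt2a*, a Trithorax methyltransferase, to 0.58 (SE 0.14) for *Ezh2*, the Polycomb methyltransferase. Between the genotypes 0 genes of these 3 lists were called in any region (edgeR).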

How the data were processed

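Poly(A) RNA from 18 libraries, 1 per mouse and region, was sequenced by the authors. Gene counts were deposited as whole numbers for 53468 genes. The authors describe taking Salmon transcript estimates into DESeq2 (Salmon 0.14.0, DESeq2 1.30.1 and mm10 in the submitters' processing notes). Estimated counts per transcript were deposited by the authors as 18 tables. Of these, 2 of 18 were closest to the library of their own record, so they were used only summed over all tables, for transcript shares and for the length behind CPM per kb. Summed by gene, each was 1.94% to 3.26% apart from its closest library of the gene counts. Whether the gene counts are sums of these estimates was not tested. Whether counting used strand is not given in the sources used here. The 105 genes without a symbol held 0.0438% of counts.

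Genes were filtered with filterByExpr at its defaults. CPM values used TMM effective library sizes. Each SE of a log2 fold change from edgeR is a derived value, the absolute log2 fold change over the square root of the F statistic. Quasi-likelihood tests were run in edgeR 4.0.16 (R 4.3.3, limma 3.58.1), for regions on all 18 libraries and for genotypes within the 6 libraries of a region, with Benjamini-Hochberg adjustment over all genes tested and a threshold of 0.05. The alternatives were DESeq2 1.42.0, its size factors, total counts, no filter, 1 fit of all libraries, each genotype alone, a replicate block, and each mouse left out. Leaving out single libraries for the share of hindbrain was added after seeing the data. Scripts were tested on simulated data. Counting intervals are exact at 95% and, like the floor of 3 counts over the 6 libraries of a region, cover counting error only. Libraries held between 22455512 and 28061185 counts, and precision in midbrain and forebrain was set by the few counts per member.

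All 39 members are in the counts and sums, and the values of some single genes are not reported here. Hindbrain values are given for at most the 20 members highest in CPM with a mean of at least 1 CPM, and midbrain values for members with 10 or more counts in a midbrain library. *Hoxb9*, *Hoxc8* and *Hoxa9* were added after their values were seen. Other genes inside the clusters are named from 0.5 CPM in hindbrain. The members and lists were chosen with earlier results of these data known. The pairing of samples was checked by the correlation of deviations from group means. Libraries of the same mouse gave -0.17 to 0.178 (3 of 18 pairs above 0.1). For the regions the block was by mouse, as the mouse numbers in the sample titles tie the regions. Within a region each mouse gave 1 library, so the block for the genotypes joined mice of opposite genotype by replicate number. Such pairs gave -0.12 to 0.069 (0 of 9 above 0.1).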

Additional observations from a re-analysis of the deposited data

Results flagged for a closer look

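A library was set apart when its gap to the nearest of the 6 libraries of its region passed the 95% critical value of Dixon's test as a share of their range, in 41 sets of 6 values, and chance alone marks about 1 in 20 such sets. *Hoxa6* was 0.482 CPM in the hindbrain of wild-type replicate 1, with the nearest library at 1.21 CPM. *Hoxb3* was 21.6 CPM in the hindbrain of wild-type replicate 3, with the nearest at 17.2 CPM. In midbrain, *Hoxd1* was 0.529 CPM in *Fmr1*CRE replicate 1 (nearest 0.261 CPM) and *Hoxd3* was 0.915 CPM in wild-type replicate 1 (nearest 0.341 CPM).

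The transcript tables did not follow their records. Of the 18 tables, 6 held 149.7 to 252.5 *Hox* reads per 1000000, and the others held at most 5.58. Of these 6, 4 were attached to a forebrain or midbrain record and 2 to a hindbrain record, while all 6 were closest to a hindbrain library of the gene counts. The region comparisons rest on the gene counts. There the 6 libraries high in *Hox* counts are the 6 labelled hindbrain, but these counts are also what is compared. Apart from them, the 10 midbrain markers summed to 50.2 to 115.5 CPM in midbrain libraries. They summed to 5.96 to 18.8 CPM in forebrain and 13.7 to 22.3 CPM in hindbrain libraries.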

How the results depend on the processing

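Called members numbered 20 to 26 for hindbrain against midbrain and 20 to 28 for hindbrain against forebrain over all alternatives, with 24 in each without any 1 mouse. For the regions, the share of all genes called is given above only for the main fit and the fit without a filter. For midbrain against forebrain, 12 members were called. The count was 7 with *Fmr1*CRE libraries alone and 4 with wild-type libraries alone, where fewer samples were fitted, and 7 to 11 when each mouse was left out in turn, with 7 without wild-type replicate 1 and 7 without wild-type replicate 2. It was 12 without both mice of replicate 3, 13 with DESeq2, and 11 with the replicate block, under which the call of *Hoxd1* was lost (adjusted p = 0.102, edgeR) and which changed no count for hindbrain against midbrain or forebrain. *Hoxb5* lost its call with wild-type libraries alone. *Hoxd4* was called with DESeq2, without a filter and with total counts. For the genotypes and the interaction 0 members were called under every alternative run, the replicate block included. For the genotypes within a region, that block joined different mice by replicate number and was not a block by mouse. Of the values of single members, 360 kept their direction and side of the threshold, 10 became weaker, 3 became stronger and 0 reversed. In midbrain and forebrain, depth limits most members: no member exceeded 36 counts in a midbrain library or 7 in a forebrain library.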

Other observations

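Transcript shares, summed over the 18 transcript tables, show which annotated transcripts the estimated counts of a member fell on. *Hoxc8* had 68.8% on a transcript with a retained intron and *Hoxd3* 62.7%, and for *Hoxa9* it was 30.2%. *Hoxd11* had 100% on a processed transcript and 0 on its coding one. *Hoxb9* was shared between its coding transcripts at 51.3% and 48.7%, and *Hoxb8* had 77.8% on the first of its 3 coding transcripts. These shares are the estimates of the counting program over all regions and have no replicate error here.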
